A study of Mus musculus with 18 samples.

Results

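The libraries labelled Treg were compared with the libraries labelled CD4, in wild type mice, across all genes counted. The comparison holds 6 of the 18 libraries of the series, 3 of each label, chosen by their labels alone. Of 55487 genes counted 12693 had enough counts to be tested. Both groups were T cells sorted by flow cytometry from the spleen of mice of strain Foxp3 YFP/cre, in which the gene of the Treg transcription factor carries a YFP and Cre reporter, with Ebi3 intact. After sorting, all were cultured for 72 h before RNA was taken. The plates were coated with anti-CD3 at 2 µg/ml. The medium held IL-2 at 10 ng/ml, and costimulation came from anti-CD28 at 2 µg/ml. Each library was made from 500 ng of total RNA with a kit that counts molecules by 1 tag near the 3' end of the transcript. The labels give no age or sex, and do not tell whether Foxp3-expressing cells were removed from the CD4 sort, or whether both labels came from the same animals. They also do not say whether replicates were separate animals, so the p-values reflect the spread among these libraries alone, which may be technical.

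Regulatory T cells are CD4 T cells that restrain immune responses. They depend on the transcription factor Foxp3, and are known for high levels of the IL-2 receptor alpha chain (Il2ra), of the checkpoint receptor Ctla4 and of the costimulatory receptors GITR (Tnfrsf18) and OX40 (Tnfrsf4). Conventional CD4 T cells that are stimulated through CD3 and CD28 leave quiescence, induce several of the same receptors, enter the cell cycle, build membranes and ribosomes, and secrete helper cytokines.

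Total counts per library were 1358671, 1991812 and 1754800 in CD4 and 841892, 882659 and 1089003 in Treg, so depth went with the label. A floor of 3 counts corresponded to 1.45 to 2.19 CPM (counts scaled to a common library size, with TMM factors) in a CD4 library and to 2.87 to 3.89 CPM in a Treg library, counting error only. Replicate 1 of Treg differed from replicate 2 by less than sampling noise, with a chi-square of 0.923 per gene, and the pair was counted as 1 sample, so that means are over n = 3 for CD4 and n = 2 for Treg. Of the 9 pairs between a Treg wild type and a Treg Ebi3-/- library, 4 were also within sampling noise, the closest at 0.869. CD4 replicate 1 stood apart from CD4 replicates 2 and 3 (5.30 and 4.01, against 1.65 between those 2). Its chi-square per gene to the Treg libraries was smaller (8.35 to 9.87, against 11.4 to 13.8 for the other 2 CD4 libraries). This measure grows with depth, and CD4 replicate 1 had the fewest counts of the CD4 libraries. The part of depth in the smaller values was not tested.

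At an adjusted p under 0.05 (edgeR quasi-likelihood test, Benjamini-Hochberg over all genes tested), 5464 genes, 43.0% of those tested, differed between the labels. Higher in Treg were 3151 genes (24.8%) and lower 2313 (18.2%), and these shares are the background against which each gene group below is read. The rise was over 2-fold for 1772 genes and the fall for 975. The median log2 fold change (Treg minus CD4) of all genes was 0.05. With no scaling factor beyond total counts, this median moved by -0.11 and the split turned to 2645 higher and 2935 lower, so small changes in direction depend on the scaling. Genes that reached the minimum count in the Treg libraries alone were also tested, and these could hardly be called lower. With the 6 libraries alone 10147 genes were tested, and 1989 were higher and 1989 lower. The excess of higher genes thus depends on the libraries fitted and the genes tested. Without CD4 replicate 1 the main fit called 6037 genes. The fit kept all libraries as separate samples. With Treg replicates 1 and 2 summed into 1 sample 5291 genes were called, and with the close Treg pairs of both genotypes summed, an alternative added after the data were seen, 5048. Genes called higher were protein-coding in 73.5% of cases and genes called lower in 96.7%, against 85.2% of all genes tested.

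The labels were first checked on the genes that define T cells and their lineages. T cell receptor and CD3 genes were present in every library. Trac, the constant region of the alpha chain, stood at 181, 260 and 255 CPM in CD4 and at 198, 173 and 225 CPM in Treg. The groups overlapped and the difference missed the threshold (log2 fold change -0.22, SE 0.23, edgeR adjusted p = 0.46). Cd3e was likewise at 61.9, 87.5 and 78.7 CPM in CD4 and 58.3, 49.2 and 91.7 CPM in Treg.

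Foxp3 (ENSMUSG00000039521, chromosome X, 7573644 to 7595245 in GRCm38) gave 1 count over the 3 CD4 libraries and 2 counts over the 3 Treg libraries. It was not detectable at this depth in either group. Il2ra, the IL-2 receptor alpha chain, stood at 361, 617 and 560 CPM in CD4 and at 189, 114 and 85.1 CPM in Treg. All 3 Treg libraries lay below all CD4 libraries, with means of 513 ± 134 CPM (SD, n = 3) and 118 ± 47.2 CPM (SD, n = 2), a log2 fold change of -2.02 (SE 0.28, edgeR adjusted p = 4.1e-05). Tnfrsf18, encoding GITR, stood at 214, 329 and 268 CPM in CD4 against 105, 50.4 and 65 CPM in Treg. Ctla4 stood at 33.5, 65.2 and 45.6 CPM in CD4 against 24.6, 16 and 18.2 CPM in Treg. Both genes fell with no overlap between the groups (log2 fold changes -1.90 and -1.34).

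Of 26 genes listed for Treg identity, 19 were tested, 9 were lower and 2 higher in Treg, and their median log2 fold change was -1.31. The lower ones also held Tnfrsf4 (OX40), Ikzf4 (Eos, a partner of Foxp3) and the chemokine receptor gene Ccr4. Ikzf2, which encodes Helios, was 1 of the 2 that rose, the other being Swap70. It stood at 13.1, 19.8 and 18.6 CPM in CD4 and at 68.7, 34.4 and 53.5 CPM in Treg (log2 fold change 1.57, SE 0.36, edgeR adjusted p = 0.0019). In CD8 libraries Ikzf2 ranged from 48.9 to 73.3 CPM. Nrp1, a marker of thymus-derived Treg, was at 13.8, 16.9 and 18 CPM in CD4 and 18.1, 13.5 and 17.2 CPM in Treg, and the groups overlapped. Summed over the list, CD4 libraries held 1502 to 2216 CPM and Treg libraries 756 to 1102 CPM. The 9 lower of 19 tested genes, against 18.2% of all genes, go against the label. Foxp3 was not detectable in either group, so it does not tell them apart. The CD4 cells compared had been stimulated, which induces several of the same receptors. Treg is used below as the name of the label only.

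The coreceptors set the label apart in another way. Cd4 (ENSMUSG00000023274, chromosome 6, 124864692 to 124888221 in GRCm38), the MHC class II coreceptor, stood at 103, 127 and 100.1 CPM in CD4 and at 36.3, 34.4 and 60.2 CPM in Treg. All Treg libraries lay below all CD4 libraries (log2 fold change -1.31, SE 0.21, edgeR adjusted p = 1.4e-05). In a bulk sample, fewer cells of a type and less RNA per cell cannot be told apart. Cd8a (ENSMUSG00000053977, chromosome 6, 71373427 to 71379173), the alpha chain of the CD8 coreceptor, was at 0, 0.483 and 1.69 CPM in CD4 and at 44.1, 46.7 and 29.6 CPM in Treg. Cd8b1, the beta chain, was at 1.46, 6.77 and 7.31 CPM in CD4 and at 42.8, 46.7 and 45.9 CPM in Treg. Both chains rose (edgeR adjusted p = 1.9e-10 and 3.6e-08), Cd8b1 by a log2 fold change of 3.01 (SE 0.32). Cd8a had 4 counts over the CD4 libraries, too few for the size of its rise to be given.

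Against the wild type CD8 libraries, in which 50.3% of tested genes differed from Treg, Cd8a was lower in Treg by a log2 fold change of -2.41 (SE 0.19) and Cd8b1 by -1.89 (SE 0.20). The CD8 libraries held 168 to 244 CPM of Cd8a, 129 to 192 CPM of Cd8b1 and at most 0.509 CPM of Cd4. The Treg libraries thus lay between both other labels for all 3 coreceptor genes, with no overlap. Zbtb7b, the factor that commits thymocytes to the CD4 lineage, stood at 42.3, 53.6 and 55.1 CPM in CD4 and at 66.1, 72.5 and 52.6 CPM in Treg, and the groups overlapped. Other genes of CD8 and cytotoxic cells did not move as 1 block. Of 11 tested CD8 lineage genes 5 rose and 1 fell (0 fell without CD4 replicate 2, Treg replicate 2 or Treg replicate 3). Prf1, the pore-forming perforin, went from 1.46, 2.42 and 1.69 CPM in CD4 to 24.6, 24.6 and 15.3 CPM in Treg, against 92.5 to 125 CPM in CD8. The killer receptor subunit gene Klrd1 and the protease gene Ctsw also rose, Ctsw by a log2 fold change of 1.40, with few counts of Klrd1 in CD4. Of 12 cytotoxic granule genes 1 rose, Prf1, and 6 fell (2 rose without Treg replicate 2). Among those that fell, Serpinb6b, an inhibitor of granzymes, went from 252, 347 and 285 CPM to 49.2, 45.5 and 62.1 CPM.

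**Figure D1:**
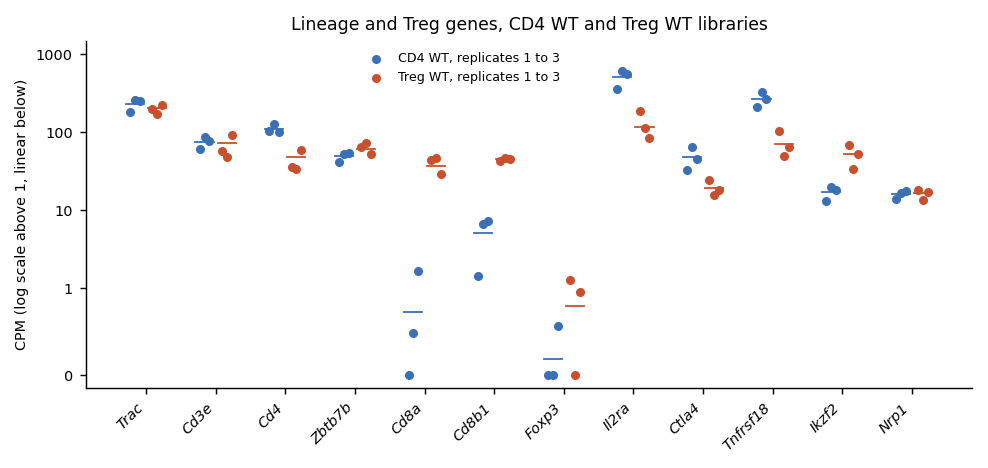
CPM of 12 lineage and Treg genes in the 3 CD4 (blue) and 3 Treg (orange) wild type libraries. The vertical axis is logarithmic above 1 and linear below, points are libraries in the order of their replicate numbers, and bars are means with Treg replicates 1 and 2 counted as 1 sample. Cd8a and Cd8b1 are higher and Cd4, Il2ra, Ctla4 and Tnfrsf18 lower in every Treg library, and Foxp3 is near 0 in all 6.

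The 12 largest rises and the 12 largest falls were taken among called genes at a mean of at least 4 on the log2 CPM scale over the 6 libraries whose groups did not overlap. Dct (ENSMUSG00000022129, chromosome 14, 118012790 to 118052244 in GRCm38), an enzyme of melanin synthesis, stood at 2.19, 1.45 and 1.69 CPM in CD4 and at 124, 125 and 100.3 CPM in Treg. Napb, a membrane fusion adaptor best known in neurons, stood at 2.91, 1.93 and 2.25 CPM in CD4 and 117, 99.6 and 87 CPM in Treg. Lars2, the mitochondrial leucyl-tRNA synthetase, stood at 21.1, 23.7 and 25.9 CPM in CD4 and 321, 307 and 266 CPM in Treg. Dct and Napb had 3 and 4 counts in each CD4 library, and reached the minimum count of the filter in the Treg libraries alone. Their calls therefore carry no weight, and no size is given for their rise. All 3 genes were also low in CD8, with Dct at 0.509 to 4.45 CPM, Napb at 2.51 to 3.56 CPM and Lars2 at 24.4 to 31.1 CPM. The annotated span of Dct overlaps a gene on the other strand, and the strand setting of the counting is not given in the sources used here, so its reads may be shared, whereas no annotated gene overlaps Napb or Lars2.

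Hmox1, Casp4 and Ppp1r15a were also among the largest rises. Hmox1, the haem-degrading enzyme, went from 16.8, 11.6 and 13.5 CPM to 141, 140 and 121 CPM (log2 fold change 3.28, SE 0.19). Casp4, the inflammatory caspase that senses lipopolysaccharide, went from 13.8, 14.5 and 12.9 CPM to 178, 152 and 117 CPM. Ppp1r15a, which restarts translation after stress, went from 3.64, 6.77 and 6.75 CPM to 68.7, 62.7 and 44 CPM. In each of them every Treg library lay above every CD4 library. Chst1 (a sulfotransferase), Sfxn5, Shisa8, the kinase gene Txk and the GTPase gene Arl4c followed with log2 fold changes from 2.71 (Arl4c) to 3.66 (Chst1), and the coreceptor gene Cd8b1 was the other member of the set.

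The 12 largest falls began with Crabp2. Crabp2, a retinoic acid binding protein, went from 35.7, 71.5 and 64.1 CPM in CD4 to 3.89, 2.46 and 4.78 CPM in Treg (log2 fold change -3.91, SE 0.45, edgeR adjusted p = 4.2e-07). Tnfrsf4 went from 213, 388 and 378 CPM to 50.5, 33.2 and 44.9 CPM, and Lta, encoding lymphotoxin alpha, from 53.9, 97.1 and 81.5 CPM to 10.4, 12.3 and 8.6 CPM. The groups were far apart for all 3 genes. CD4 replicate 1 was the lowest CD4 library for each. Lad1, Penk (the precursor of enkephalin peptides) and Il12rb1, a receptor chain for IL-12 and IL-23, fell by log2 fold changes of -3.89, -3.15 and -2.73. The remaining 6 were Cdk1, Hmmr, Cdc20, Ect2, Zwilch and Ube2c, all of which act in mitosis or cell division.

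**Figure D2:**
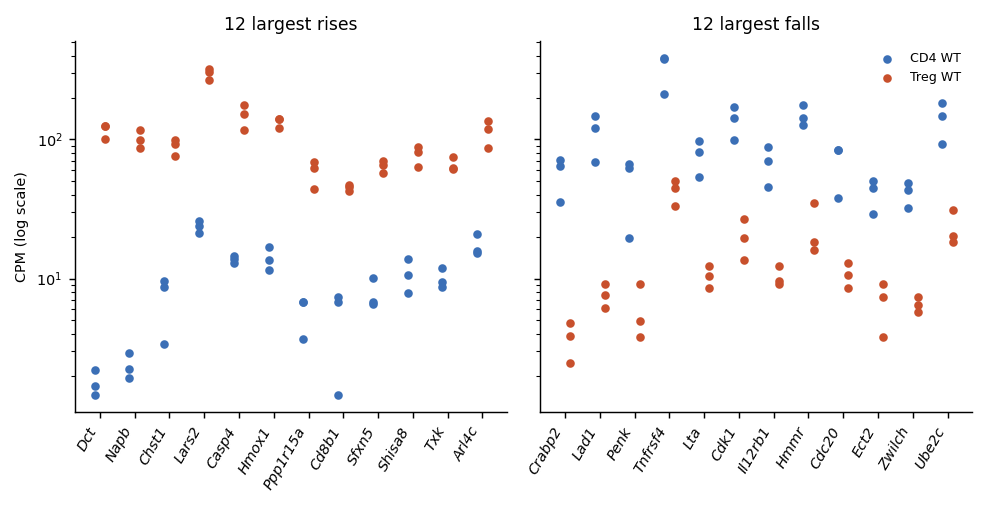
CPM on a logarithmic axis for the 12 largest rises (left) and 12 largest falls (right), 1 point per library, CD4 blue and Treg orange. Dct, Napb and Lars2 sit in all 3 Treg libraries far above all 3 CD4 libraries, and in the falls the Treg points lie below the CD4 points throughout.

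All 39 of 39 tested genes of the G2 phase and mitosis were lower in Treg, against 18.2% of all genes, with a median log2 fold change of -2.04 and a range from -3.34 to -0.56. In each of the 39 the 3 Treg libraries lay below the 3 CD4 libraries, and the count was also 39 without CD4 replicate 1, with the 6 libraries alone and with no scaling factor. Cdk1 (ENSMUSG00000019942, chromosome 10, 69335146 to 69352938), the kinase that drives entry into mitosis, stood at 99.8, 172 and 143 CPM in CD4 and at 19.4, 13.5 and 26.8 CPM in Treg (log2 fold change -2.77, SE 0.23, edgeR adjusted p = 5.4e-10). Top2a, the topoisomerase that untangles sister chromatids, stood at 907, 1185 and 1007 CPM in CD4 against 246, 221 and 236 CPM in Treg. No Treg library came near the lowest CD4 library. Aurkb, the kinase of the chromosomal passenger complex, fell from 29.1, 53.2 and 51.2 CPM to 3.89, 4.92 and 4.78 CPM. Bub1, of the spindle checkpoint, fell from 32.1, 52.2 and 42.2 CPM to 3.89, 3.69 and 4.78 CPM. Mki67, the usual marker of cycling cells, fell by 1.98 on the log2 scale. In 33 of the 39 genes CD4 replicate 1 was the lowest CD4 library.

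Promoters of 5 of these genes are shown because they share a sequence element that most genes tested lack. The element is CCAAT, the letters bound by the factor NF-Y, which is known for its sites in mitotic promoters. The windows run from 250 bases before to 50 bases after the transcription start in RefSeq (build GRCm38.p6) and are written in the direction of the gene. They are chr10:69352863-69353162 on the minus strand for Cdk1, chr4:118437294-118437593 on the minus strand for Cdc20, chr11:40733388-40733687 on the minus strand for Hmmr, chr11:99024140-99024439 on the minus strand for Top2a and chr2:164769679-164769978 on the plus strand for Ube2c. Capitals mark CCAAT on either strand, so that ATTGG is the same element read backwards.
Cdk1: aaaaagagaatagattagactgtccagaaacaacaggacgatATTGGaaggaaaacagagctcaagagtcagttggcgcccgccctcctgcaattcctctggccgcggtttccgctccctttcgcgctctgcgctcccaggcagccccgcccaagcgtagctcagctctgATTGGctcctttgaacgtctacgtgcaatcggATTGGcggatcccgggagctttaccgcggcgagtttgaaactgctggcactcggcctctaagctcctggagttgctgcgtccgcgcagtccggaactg
Cdc20: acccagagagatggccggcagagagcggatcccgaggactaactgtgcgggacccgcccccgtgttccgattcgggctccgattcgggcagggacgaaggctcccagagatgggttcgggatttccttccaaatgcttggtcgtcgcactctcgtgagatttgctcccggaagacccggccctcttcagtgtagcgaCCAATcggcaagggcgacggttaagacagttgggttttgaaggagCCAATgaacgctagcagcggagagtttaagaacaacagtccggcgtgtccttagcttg
Hmmr: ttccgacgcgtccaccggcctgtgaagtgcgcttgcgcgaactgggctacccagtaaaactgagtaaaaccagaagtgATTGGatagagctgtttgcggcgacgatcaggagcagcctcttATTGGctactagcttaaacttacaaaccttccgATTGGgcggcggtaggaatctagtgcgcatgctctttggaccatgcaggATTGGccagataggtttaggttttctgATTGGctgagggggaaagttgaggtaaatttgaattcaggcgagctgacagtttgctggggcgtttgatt
Top2a: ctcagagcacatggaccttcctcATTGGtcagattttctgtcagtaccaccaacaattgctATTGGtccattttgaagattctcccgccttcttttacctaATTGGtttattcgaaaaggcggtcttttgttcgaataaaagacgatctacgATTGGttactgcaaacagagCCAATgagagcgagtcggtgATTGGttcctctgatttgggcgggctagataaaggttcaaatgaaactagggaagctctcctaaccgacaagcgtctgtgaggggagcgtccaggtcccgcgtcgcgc
Ube2c: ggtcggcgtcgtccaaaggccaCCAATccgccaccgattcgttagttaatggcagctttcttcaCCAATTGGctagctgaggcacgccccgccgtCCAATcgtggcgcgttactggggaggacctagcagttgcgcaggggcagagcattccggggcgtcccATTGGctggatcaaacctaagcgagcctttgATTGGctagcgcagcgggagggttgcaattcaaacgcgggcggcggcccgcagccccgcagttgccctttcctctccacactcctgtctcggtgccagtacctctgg

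The element occurs 3 times in the Cdk1 window, 2 times in Cdc20, 5 times in Hmmr and 6 times each in Top2a and Ube2c. Of 39 mitotic genes tested, 35 were matched to 38 promoters, and 84.2% of these held CCAAT on either strand, with 2 or more copies in 57.9%. The share was 37.9% among promoters of all genes tested, and 37.4% among all 32851 promoters of the table. Among promoters of all genes called lower it was 39.7%, and of those called higher 36.7%, so the element was not common to the lower genes at large. Promoters of sterol and fatty acid genes held it in 70.4% of cases and those of S phase genes in 52.8%. An E2F element, TTTCGCGC, lay in 16.7% of S phase promoters on either strand, against 0.654% of all tested. A match of letters is a description and not a binding site.

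DNA replication genes were lower as well. Of 38 tested S phase genes 36 were lower and 1 higher, with a median log2 fold change of -1.49. Rrm2, a subunit of ribonucleotide reductase, stood at 56.1, 112 and 136 CPM in CD4 and at 15.6, 17.2 and 23.9 CPM in Treg (log2 fold change -2.41, SE 0.30, edgeR adjusted p = 3.1e-06). Mcm10, which helps to fire replication origins, stood at 46.6, 66.7 and 64.7 CPM in CD4 and 19.4, 13.5 and 8.6 CPM in Treg. The groups did not overlap for either gene. Cdc45 and Cdc6 fell by 2.49 and 2.15 on the log2 scale, whereas the replication clamp gene Pcna fell by 0.79. The gene that rose was Slbp, which binds histone mRNA, at 36.4, 25.6 and 22.5 CPM in CD4 and 51.8, 36.9 and 38.2 CPM in Treg (log2 fold change 0.60). The call of Slbp was lost without CD4 replicate 2, without CD4 replicate 3 and without Treg replicate 1.

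Replication-dependent histone genes, whose transcripts are made in S phase, followed. Of 70 genes 46 were tested, and 31 of these were lower and 0 higher, with a median log2 fold change of -1.83 (edgeR; 1 was higher without CD4 replicate 1 and 1 without CD4 replicate 3). In the fit of the 6 libraries alone 22 were tested and 14 of these were lower. Hist1h1b, a linker histone, stood at 32.8, 61.9 and 64.7 CPM in CD4 and at 3.89, 2.46 and 3.82 CPM in Treg. Their share of all counts was 0.0776%, 0.127% and 0.122% in CD4 and 0.0454%, 0.0412% and 0.0442% in Treg. These genes are near-identical copies and most lack a poly(A) tail, so values of single members are uncertain.

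Genes that build membranes moved in the same direction. Of 32 tested sterol and fatty acid synthesis genes 28 were lower in Treg and 0 higher (edgeR; 30 lower and 0 higher without CD4 replicate 1), with a median log2 fold change of -1.15. Hmgcs1, an early enzyme of the sterol pathway, stood at 266, 368 and 331 CPM in CD4 and at 114, 99.6 and 93.7 CPM in Treg (log2 fold change -1.66, SE 0.15, edgeR adjusted p = 3.3e-09). Scd2, a desaturase of fatty acids, went from 176, 324 and 324 CPM to 76.5, 61.5 and 60.2 CPM. Every Treg library lay below every CD4 library in both genes, as in 26 of the 32. Srebf2, encoding the transcription factor that controls the sterol genes, stood at 243, 227 and 247 CPM in CD4 and at 249, 258 and 247 CPM in Treg, and was not called (log2 fold change 0.07, SE 0.11).

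Signalling from the T cell receptor and the IL-2 receptor was represented at several levels. Lcp2, the adaptor SLP-76, stood at 176, 273 and 252 CPM in CD4 and at 42.8, 51.6 and 65.9 CPM in Treg (log2 fold change -2.11, SE 0.19, edgeR adjusted p = 4e-09). Zap70, the kinase that docks on the CD3 chains, went from 32.8, 62.8 and 61.9 CPM to 15.6, 16 and 16.2 CPM. Lck, the kinase that acts before Zap70, was at 201, 274 and 247 CPM in CD4 and at 242, 221 and 287 CPM in Treg, and the groups overlapped. Over the list of 20 T cell receptor and CD3 genes 8 were lower, and 2 higher, Themis and Trdc. Trdc, the constant region of the delta chain, was at 0.483 to 1.12 CPM in CD4 and at 1.3, 7.37 and 7.65 CPM in Treg, near the floor, and its call was lost without CD4 replicate 2, Treg replicate 2 or Treg replicate 3. None of the list was higher without Treg replicate 3.

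Of 16 IL-2 receptor and STAT5 feedback genes 10 were lower and 2 higher, Il2rg and Jak1, with 1 higher without any 1 of CD4 replicates 2 and 3 and Treg replicates 1, 2 and 3. Cish, a feedback inhibitor induced by STAT5, stood at 219, 358 and 290.2 CPM in CD4 and at 77.8, 44.2 and 46.8 CPM in Treg (log2 fold change -2.39, SE 0.18, edgeR adjusted p = 4.6e-10). Il2rb, the beta chain shared with the IL-15 receptor, went from 214, 331 and 280.1 CPM to 117, 56.5 and 76.5 CPM. All cells had been given IL-2 in culture, per the labels' protocols. Among 25 activation genes 11 were lower and 7 higher, so the list as a whole did not go 1 way (median log2 fold change -0.12, and 7 lower without Treg replicate 3). Nr4a3, an early gene of receptor signalling, went from 88.9, 165 and 136 CPM to 37.6, 30.7 and 29.6 CPM, and the memory marker gene Cd44 from 264, 351 and 343 CPM to 143, 163 and 161 CPM. In the other direction Bcl2a1b, a survival gene with near-identical copies, rose from 26.2, 42.5 and 54.6 CPM to 223, 222 and 132 CPM. CD4 replicate 1 was the lowest CD4 library in 22 of the 25 activation genes and in 18 of the 20 receptor genes.

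Of 9 tested ligands of the TNF family 6 were lower and 1, Ltb, higher. Of 11 TNF receptor family genes 5 were lower and 1 higher, Cd27, which is high on unstimulated T cells and stood at 13.1, 25.6 and 36.6 CPM in CD4 and 60.9, 52.8 and 72.6 CPM in Treg. Of 16 helper cytokine genes 9 were lower and 4 higher (2 without CD4 replicate 1), and 1 of the 4 entered the test through the Treg libraries alone. Il13, a type 2 cytokine, stood at 36.4, 43 and 40.5 CPM in CD4 and at 10.4, 3.69 and 6.69 CPM in Treg (log2 fold change -2.54, SE 0.31, edgeR adjusted p = 1.1e-07). Its regulator Gata3 stood at 353, 497 and 475 CPM in CD4 and at 113, 86 and 104 CPM in Treg. Both fell with no overlap between the groups. The type 1 regulator Tbx21, encoding T-bet, also fell, from 28.4, 38.7 and 48.9 CPM to 9.07, 3.69 and 9.56 CPM.

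Some type 1 products were nonetheless higher in Treg. The gene Ifng, for interferon gamma, stood at 11.7, 27.5 and 7.87 CPM in CD4 and at 44.1, 40.6 and 42.1 CPM in Treg, against 421 to 665 CPM in CD8, and its call was lost without CD4 replicate 1 (log2 fold change 1.35, SE 0.41, edgeR adjusted p = 0.015 with all libraries and 0.0647 without). Ccl4, a chemokine of cytotoxic and activated T cells, stood at 16, 15 and 16.9 CPM in CD4 and at 70, 77.4 and 65.9 CPM in Treg. Of 11 listed chemokines 4 were tested, and all 4 were higher (edgeR). Among these 4, 1 had 0 counts in every CD4 library. With DESeq2, with no scaling factor, after thinning or with a fold change over 1.5 required, 3 of the 4 were higher and 0 lower. Il6, not a type 1 product, went from 0, 1.45 and 0.562 CPM to 10.4, 7.37 and 5.73 CPM. It was at or below the floor of 3 counts in every CD4 library. Only the Treg libraries brought it to the minimum count, so its call carries no weight. Of 15 type 1 genes in all 7 were higher, 1 of which entered the test through the Treg libraries alone, and 5 lower, and of 11 type 2 genes 1 was higher, Maf, and 5 lower.

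Of 28 naive and quiescence genes 13 were higher and 1 lower (2 lower without CD4 replicate 1 or 2), against 24.8% and 18.2% of all genes, with a median log2 fold change of 0.31. Il7r, the receptor for the survival cytokine IL-7, stood at 94.7, 131 and 102 CPM in CD4 and at 238, 219 and 291 CPM in Treg (log2 fold change 1.18, SE 0.22, edgeR adjusted p = 0.00031). Klf3 and Bach2, both transcriptional repressors, rose by 1.67 and 0.93 on the log2 scale, and Ccr7, which guides cells to the T cell zone, by 0.64. In Il7r, Klf3 and Bach2 every Treg library lay above every CD4 library. The gene that fell was Dapl1. Of 19 chemokine and homing receptor genes 9 were higher and 4 lower. Among the higher ones Cxcr4 went from 15.3, 14 and 10.7 CPM to 54.4, 79.9 and 64 CPM and Ccr6 went from 15.3, 12.1 and 10.1 CPM to 88.1, 82.3 and 55.4 CPM. Ccr6 is also carried by B cells.

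Of 16 NF-kappaB genes 8 were higher and 2 lower, with 5 higher without Treg replicate 2. Nfkbid, an atypical inhibitor of the pathway, stood at 44.4, 44.5 and 33.2 CPM in CD4 and at 144, 160 and 123 CPM in Treg (log2 fold change 1.80, SE 0.16, edgeR adjusted p = 2.6e-10). Rel, the subunit most typical of lymphocytes, went from 154, 157 and 158 CPM to 275, 322 and 237 CPM. Of 20 immediate early genes 7 were lower and 2 higher, and 0 were higher (edgeR) without CD4 replicate 2, CD4 replicate 3 or Treg replicate 1. Junb was 1 of the lower genes, which went from 323, 345 and 351 CPM to 192, 202 and 191 CPM.

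**Figure D3:**
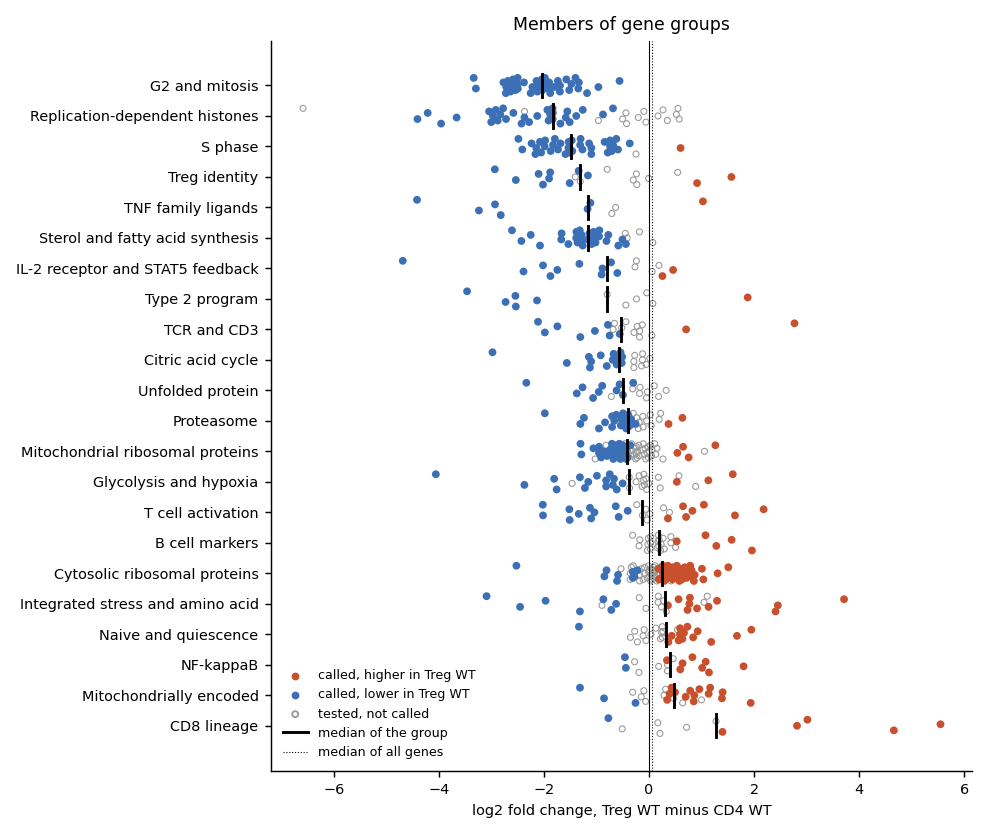
Log2 fold change of Treg against CD4 for the tested members of 22 gene groups, 1 point per gene. Filled points passed the test (orange higher, blue lower), open points did not, black bars are group medians and the dotted line is the median of all genes. All mitotic genes lie below 0, the sterol, S phase and histone genes nearly so, and the CD8, naive and NF-kappaB groups lie mostly above.

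Stress pathways split. The integrated stress response, which acts through the factor Atf4 when amino acids or translation fail, had 11 genes higher and 7 lower of 28 gene entries, with 1 of the 11 entering the test through the Treg libraries alone. Atf5, one of its transcription factors, stood at 80.1, 55.6 and 55.1 CPM in CD4 and at 369, 379 and 286 CPM in Treg (log2 fold change 2.45, SE 0.15, edgeR adjusted p = 3e-13). Chac1, which degrades glutathione, went from 7.29, 10.1 and 10.7 CPM to 67.4, 45.5 and 42.1 CPM. Atf4 itself stood at 866, 709.9 and 637 CPM in CD4 and at 906, 857 and 731 CPM in Treg, with overlap and no call. Lower were the amino acid enzyme gene Cth and the secreted factor gene Stc2, by 1.97 and 2.45 on the log2 scale. The unfolded protein response of the endoplasmic reticulum had 10 genes lower and 0 higher of 19 (edgeR; 10 lower and 0 higher without CD4 replicate 1). Its factor Xbp1 went from 64.1, 75.9 and 101 CPM to 41.5, 30.7 and 29.6 CPM.

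Death and survival genes also went both ways, with 7 of 29 higher, 1 of them entering the test through the Treg libraries alone, and 10 lower. These are 24.1% and 34.5%, against 24.8% and 18.2% of all genes, so the share of higher genes was near the background and that of lower genes above it. Bcl2l11, the death activator Bim, stood at 52.5, 44.9 and 45 CPM in CD4 and at 233, 222 and 175 CPM in Treg (log2 fold change 2.15, SE 0.16, edgeR adjusted p = 6.6e-12). Bax, a pore former of the mitochondrial membrane, went from 10.2, 23.2 and 12.4 CPM to 45.4, 50.4 and 29.6 CPM. The groups did not overlap in either gene. Both of these examples rose, whereas log2 fold changes over the 29 genes ran from -2.83 to 2.18, with a median of -0.18.

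Energy metabolism was lower in part. Of 22 citric acid cycle genes 14 were lower and 0 higher (edgeR; 17 lower and 0 higher without CD4 replicate 1), and of 34 glycolysis and hypoxia genes 15 were lower and 3 higher. Ldha, lactate dehydrogenase, stood at 759, 928 and 1034 CPM in CD4 and at 556, 503 and 490.3 CPM in Treg (log2 fold change -0.82, SE 0.11, edgeR adjusted p = 2.9e-07). Hif1a, the hypoxia factor that raises glycolytic genes, went from 238, 286 and 306 CPM to 121, 95.9 and 118 CPM. Gapdh was at 40.1, 76.4 and 112 CPM in CD4 and 85.5, 79.9 and 57.3 CPM in Treg, with overlap, and has many pseudogenes with which reads may be shared. Of 36 proteasome genes 22 were lower and 2 higher (1 higher without Treg replicate 1 or 2). Tfrc, the transferrin receptor that brings in iron, went from 259, 398 and 363 CPM to 144, 129 and 133 CPM.

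Genes for the protein synthesis machinery differed by compartment. Cytosolic ribosomal protein genes were higher in 42 of 86 and lower in 9, with a median log2 fold change of 0.25, and with no scaling factor in 31 and 14. Rps27 stood at 1517, 1364 and 1509 CPM in CD4 and at 3231, 3204 and 2556 CPM in Treg (log2 fold change 1.03, SE 0.10, edgeR adjusted p = 3.5e-09). Mitochondrial ribosomal protein genes went the other way, with 4 of 75 higher and 36 lower (median -0.42, and 2 higher without Treg replicate 2). Many ribosomal protein genes have processed pseudogenes, so single members are uncertain.

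Transcripts of the mitochondrial genome, which are cut from long common precursors, did not move together. Both ribosomal RNAs rose, with mt-Rnr2 at 16198, 15446 and 18476 CPM in CD4 and at 31485, 31778 and 27086 CPM in Treg (log2 fold change 0.85, SE 0.08, edgeR adjusted p = 2.7e-10). mt-Nd5, a subunit of complex I, fell, from 5720.5, 7298 and 7302 CPM to 2856, 2706 and 2615 CPM (log2 fold change -1.31, SE 0.13). mt-Co1 fell too, from 2990.3, 4094 and 4234 CPM to 2239, 2113 and 1907 CPM. The neighbouring subunit genes mt-Nd2 and mt-Nd4 rose by 0.34 and 0.39 on the log2 scale, and mt-Nd1 was not called (log2 fold change -0.10, SE 0.07). Of 26 tested mitochondrial genes 14 were higher and 3 lower, and mt-Cytb was the third that fell. The mt-Nd5 gene overlaps mt-Nd6 on the other strand.

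The make-up of the libraries differed along with these groups. The ribosomal RNA gene CT010467.1 took 1.92%, 1.96% and 2.34% of counts in CD4 and 4.50%, 4.39% and 3.99% in Treg. Mitochondrial ribosomal RNA took 2.37%, 2.35% and 2.72% in CD4 and 4.15%, 4.16% and 3.75% in Treg. Malat1, a nuclear noncoding RNA, took 0.555%, 0.38% and 0.419% in CD4 and 1.22%, 1.20% and 1.14% in Treg. For each of these shares every Treg library lay above every CD4 library, and an exact two-sided permutation test with Treg replicates 1 and 2 as 1 value gave p = 0.1, the smallest that 3 against 2 allows. Nuclear protein-coding genes took 86.9%, 87.4% and 86.2% of counts in CD4 and 81.0%, 81.1% and 82.2% in Treg. After all libraries were thinned to the lowest total, 15081, 15021 and 15021 genes had a count in CD4 and 20157, 19988 and 19531 in Treg. The part of this make-up in the gene groups above was not tested.

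**Figure D4:**
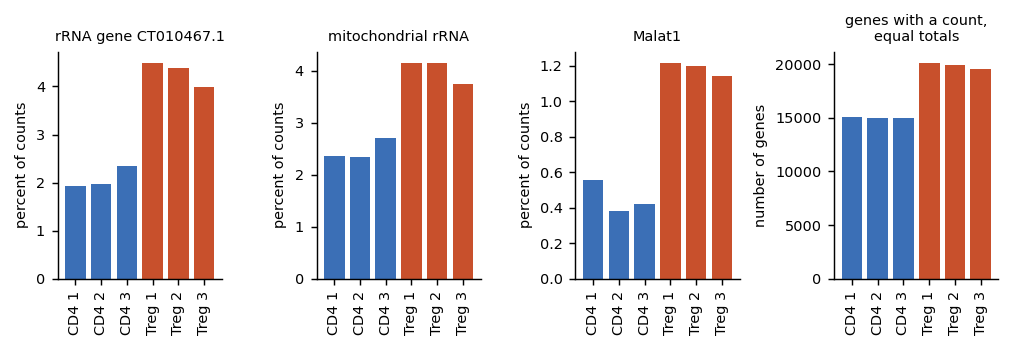
Share of counts (percent, bars from 0) taken by a ribosomal RNA gene, by mitochondrial ribosomal RNA and by Malat1, and number of genes with a count after thinning to equal totals, in each library. The 3 Treg bars (orange) are above the 3 CD4 bars (blue) in all 4 panels, with 19531 to 20157 against 15021 to 15081 genes.

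The wider range of genes in Treg reached families that T cells are not known to use. Olfactory receptor genes, which are expressed by sensory neurons of the nose, gave 16, 26 and 13 counts in the CD4 libraries and 501, 499 and 496 in the Treg libraries, although the Treg libraries were smaller. Of 1407 such genes 30 had a count in CD4 and 343 in Treg, against 42 in the CD8 libraries. Each gene gave few counts, and all 18 that were tested entered the test through the Treg libraries alone, so their calls carry no weight. The most counted in Treg was Olfr1258 (chromosome 2, 89927309 to 89936334), with 25, 23 and 15 counts in Treg and 0 in CD4. Olfr684 (chromosome 7, 105154692 to 105163653) gave 16, 17 and 18 counts against 0. Both genes were picked for their counts in Treg, so no size is given for their rise. Vomeronasal receptor genes, a family added after the values were seen, gave 41 counts over the CD4 libraries and 798 over the Treg libraries. The 4 other families added with it gave 223 and 104 counts (keratins), 0 and 14 (bitter taste receptors), 0 and 13 (beta-defensins) and 0 and 20 (seminal vesicle and placental prolactin genes).

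The same held beyond these families. Of 35808 genes with 0 counts in all 3 CD4 libraries, 6990 had a count in Treg and 770 had 10 or more over the 3 Treg libraries. In the reverse direction 2203 genes with 0 counts in Treg had a count in CD4, and 46 of them 10 or more, although CD4 was the deeper group. Olfactory receptor genes with 10 or more counts in Treg had a median exon length of 4213.5 bases, and those with 0 counts 2000.0 bases. What these counts come from was not tested.

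**Figure D5:**
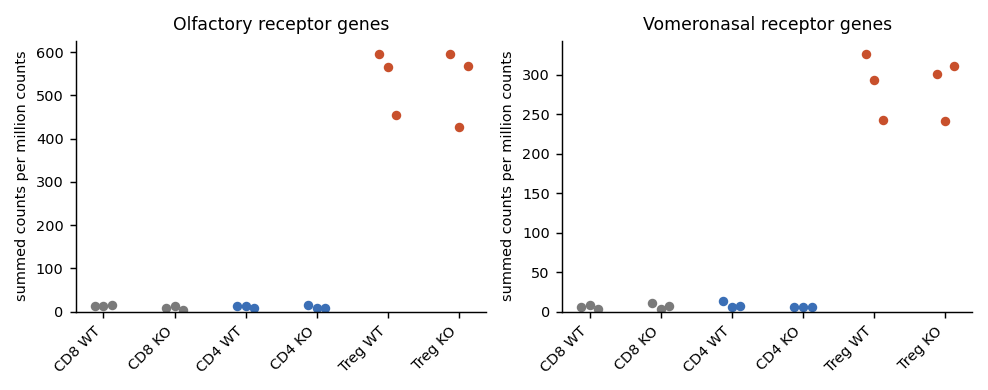
Summed counts scaled to a common library total (linear axis from 0) of olfactory receptor genes (left) and vomeronasal receptor genes (right), 1 point per library, for all 6 groups of the series. The 3 Treg wild type libraries lie at 455 to 595 for olfactory receptor genes and the 3 CD4 wild type libraries at 7.41 to 13.1.

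Markers of other cells of the spleen were measured in both groups. B cell markers were abundant, with a sum over 26 genes of 9831 to 17671 CPM in CD4 libraries and of 13898 to 14808 CPM in Treg libraries. Of the 26, 5 were higher and 0 lower in Treg (edgeR, with 10 higher and 0 lower without CD4 replicate 1). The 5 are 19.2%, below the 24.8% of all genes that were higher, whereas 18.2% of all genes were lower. All 26 were highest, among the CD4 libraries, in replicate 1. Ighm, the heavy chain of IgM, stood at 3352, 1934 and 2409 CPM in CD4 and 2518, 2588 and 2704 CPM in Treg. The groups overlapped. Fcer2a, the B cell receptor for IgE, was 1 of the 5 that rose, from 18.9, 11.1 and 11.8 CPM to 64.8, 50.4 and 44.9 CPM.

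Erythroid and platelet markers summed to 1286 to 1811 CPM in CD4 libraries and to between 1369 and 1410 CPM in Treg libraries (1 higher and 1 lower of 10 tested), led by Hbb-bs at 665, 365 and 456 CPM against 556, 573 and 569 CPM. Myeloid and dendritic markers summed to 267 to 329 CPM and 312 to 356 CPM, with 4 higher and 1 lower of 13 tested. Of the genes called higher, 1 myeloid and 1 erythroid marker entered the test through the Treg libraries alone. Among the defining myeloid and dendritic genes Lyz2 had 25 counts in CD4 and 29 in Treg, and Csf1r had 6 and 15. Both were called higher, on few counts, and Fcer1g was not called (67 and 34 counts). Not tested were Itgam (9 and 9 counts) and Itgax (3 and 8), and C1qa and Siglech, with 0 counts in CD4 and 4 and 3 in Treg. Neutrophil markers summed to between 9 and 15.3 CPM in CD4 and between 28.7 and 39.3 CPM in Treg, with 2 of 2 tested higher, S100a8 and S100a9, the call of S100a8 being lost without CD4 replicate 2. NK and innate-like T cell markers summed to 38.2 to 70.7 CPM and 59.0 to 69.8 CPM, with 2 higher and 0 lower of 4 tested. One of the 2 was Trdc, which was near the floor. With the 6 libraries alone 2 were tested and 0 were higher. Ncr1, which defines NK cells, had 1 count in CD4 and 0 in Treg. Stromal and endothelial markers summed to 513 to 691 CPM and 429 to 485 CPM, mostly Vim, which T cells also express. Of 6 tested 3 were higher and 1 lower, and 2 of the 3 entered the test through the Treg libraries alone. The other was Sparc, with 21 counts in CD4 and 23 in Treg. Not tested were Col1a1, at 5 and 15 counts, and Cdh5, at 0 counts in CD4 and 1 in Treg. Plasma cell markers summed to 614 to 914 CPM and 650.2 to 711 CPM. The part of these cells in the differences between CD4 and Treg was not tested.

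The Ebi3-/- libraries of the series gave the same comparison in a second genotype. The difference of Treg against CD4 was tested for a dependence on genotype, and 0 of 12693 genes (0%) passed (edgeR quasi-likelihood test, adjusted p under 0.05). At an unadjusted p under 0.05 there were 550 genes (635 if p-values were uniform), and DESeq2 and limma-voom also called 0, with 313 and 540 genes at an unadjusted p under 0.05. Cdk1 was at 140.4 to 170.1 CPM in the CD4 and 15.8 to 21.1 CPM in the Treg libraries of Ebi3-/- mice. Dct was at 0 to 2.34 CPM there in CD4 and at 92.9 to 119 CPM in Treg. These ranges are a description, since 4 pairs of Treg libraries across the genotypes differed by less than sampling noise and may not be independent.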

How the data were processed

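RNA was counted in 18 libraries of sorted mouse spleen T cells, of which 6 enter the main comparison. Per the labels' protocols the libraries carried unique molecular identifiers and tagged transcript 3' ends. The deposited values are raw counts per gene. The submitters' processing notes name the aligner STAR 2.5.3a and build GRCm38, featureCounts from Subread 2.0.0, UMI-tools 1.0.0 for identifiers, cutadapt 2.10 for trimming, and FastQC. How strand and multi-mapped reads were handled, and the annotation release, was not given in the sources used here.

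Counts were tested with edgeR 4.0.16 (R 4.3.3) by its quasi-likelihood test, after TMM scaling and filterByExpr with a minimum count of 10. All 18 libraries were fitted with 6 group means, which share 1 estimate of the spread. DESeq2 1.42.0, limma-voom (limma 3.58.1), other scalings, the 6 libraries alone, thinning, summed duplicates and leaving out each library were alternatives. The test was checked on simulated data in which few genes changed and all genes shared a common spread. That setting is simpler than these data, so the check does not cover the shift in make-up between the labels. Symbols were matched by gene ID for 55227 of 55487 genes. Promoters came from RefSeq (GRCm38.p6).

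Genes were named by a rule: lineage genes, the 12 largest rises and falls, the 8 largest CPM rises and falls, up to 5 called members of each of 54 lists, and the 4 most abundant markers of other cells. Klrd1, Srebf2, Cd44, Pcna, Mki67, Slbp, Atf4, Bax, Ccr7, Hif1a, Ldha, Gapdh, mt-Nd1, Lck and any other gene outside it were chosen after their values were seen. The comparison and the lists were chosen with earlier results of these data known. Some genes are not reported here.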

Additional observations from a re-analysis of the deposited data

Results flagged for a closer look

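Olfactory receptor genes also gave counts in libraries that the main comparison does not use. The 3 libraries labelled Treg from Ebi3-/- mice held 1480 such counts (526, 462 and 492), spread over 385 of 1407 genes. The 3 CD4 libraries from Ebi3-/- mice held 69 counts over 30 genes. The cause was not tested.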

How the results depend on the processing

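The number of genes differing between Treg and CD4 in wild type mice was 5464, and 4783 to 6037 when 1 library was left out. It fell to 2498 (1648 higher and 850 lower) when a fold change over 1.5 was required. No gene called in the main test changed sign under any alternative run. With no filter 7894 of 30423 genes were called. With the 6 libraries alone the split was 1989 higher and 1989 lower, and after thinning 2271 and 2252, against 3151 and 2313. Deviations of same-numbered replicates from their group means had correlations across genes of -0.07, -0.01 and -0.06. With 3 libraries per label, these cannot tell whether the samples were paired. The replicate block on the 6 libraries called 3960 genes. Nrp1, which was not called, had a log2 fold change of 0.049 with upper quartile scaling, 0.012 with limma-voom and -0.127 to 0.094 when 1 library was left out. The cause was not tested. The medians of the interferon-stimulated, myeloid and dendritic, and erythroid and platelet lists changed sign with the scaling. Of 265 named genes tested, 250 to 259 kept direction and call when 1 library was left out, and 213 did when a fold over 1.5 was required. Depth limits Foxp3 and the single receptor genes of silent families.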

Other observations

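Chromatin genes went both ways, with 10 of 27 higher and 11 lower in Treg (6 higher without CD4 replicate 2). Dnmt1, the maintenance DNA methyltransferase, stood at 144, 145 and 151 CPM in CD4 and at 60.9, 60.2 and 53.5 CPM in Treg. Ezh2, the methyltransferase of Polycomb complex PRC2, went from 465, 569 and 537 CPM to 267, 188 and 211 CPM. Tet1, which oxidises methylcytosine, went the other way, from 4.37, 10.1 and 5.06 CPM to 33.7, 33.2 and 39.2 CPM, and the demethylase gene Kdm6b from 15.3, 13.5 and 17.4 CPM to 41.5, 50.4 and 39.2 CPM. The groups did not overlap in any of these 4 genes.

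Of 45 interferon-stimulated genes 14 were higher (9 without CD4 replicate 2) and 3 lower, 3 of the 14 entered the test through the Treg libraries alone, and the median log2 fold change of 0.04 was close to that of all genes. Among 34 actin cytoskeleton genes 15 were lower and 2 higher. Myh9, the heavy chain of nonmuscle myosin, went against most called members of the list. It was 1 of the 2 that rose, from 436, 362 and 368 CPM to 603, 619 and 635 CPM. Ebi3, the subunit deleted elsewhere in the series, was at 60.5, 38.7 and 39.4 CPM in CD4 and at 35, 25.8 and 40.1 CPM in Treg, and the groups overlapped.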
